A study of Mus musculus with 137 samples.

Results

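The genes described here are 10 transcriptional targets of the tumor suppressor p53: Mdm2, Ccng1, Phlda3, Cdkn1a, Bax, Bbc3, Pmaip1, Aen, Trp53inp1, and Zmat3. They were taken by symbol from a table of 21450 genes, and each is given by whichever of its probes had the most counts over all libraries. RNA came from crypts and villi scraped from slides of formalin-fixed, paraffin-embedded duodenum of wildtype female B6C3F1 mice, which had drunk water holding Cr(VI), given as sodium dichromate dihydrate, at 0, 0.1, 1.4, 5, 20, 60, or 180 ppm. Exposure lasted 7 or 90 days, and tissue was taken on days 8 and 91. The 71 mice gave 71 crypt and 66 villus libraries, and dose, day, and compartment divided these into 28 groups. Most groups had 5 libraries. The crypt group of day 8 and 0.1 ppm had 6, and 4 were left in the villus groups of day 8 at 5, 20, and 180 ppm and in the untreated villus group of day 91. TempO-Seq, the assay used, ligates a pair of detector oligonucleotides that lie side by side on a transcript and counts the ligated products by sequencing.

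Under DNA damage and other stress p53 is stabilized and binds paired short motifs near its target genes. Its products halt the cell cycle (Cdkn1a), permeabilize mitochondria (Bax, Bbc3, and Pmaip1), and limit p53 itself (Mdm2). Because Mdm2 marks p53 for degradation and is also its target, the pair forms a negative feedback loop. In the small intestine the dividing cells are in the crypts, and the cells that leave them differentiate and move up the villi.

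Counts were scaled to CPM, counts per 1000000 of each library's effective size, and were tested in 1 negative binomial model of all groups with edgeR's quasi-likelihood test. Folds are log2 with a standard error, which for edgeR is the size of the fold over the square root of the test's F statistic. The p values are two-sided and Benjamini-Hochberg adjusted over all 26365 probes tested (20634 between compartments). A gene rose or fell at an adjusted p under 0.1. All 10 genes had 1 probe or more that passed the count filter. Library totals ran from 1463938 to 7199801 counts (median 3592983). The 4 untreated villus libraries of day 91 were shallow, with 13091 to 15835 probes detected against 15157 to 21527 in the villi at 5 to 180 ppm of that day. At day 8 the untreated villus library of mouse 48 held the highest summed level of 6 crypt markers among the villi (11544 CPM, villus median 954 CPM), and the untreated crypt library of mouse 49 the lowest among the crypts (1424 CPM, crypt median 8722 CPM). Both went against their labels, and results that rest on them are given with and without them. The villus library of mouse 447 (day 8, 60 ppm) was also high in these crypt markers (6211 CPM). Its 6 smooth muscle genes summed to 2018 CPM (villus median 290 CPM). It was kept, and was left out only in the fits without 1 mouse. Levels of different genes are not compared, because each probe has its own efficiency.

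The stretches shown next are those in which a p53 motif was found close to a gene start, in RefSeq windows of 300 bases (250 before the start and 50 after it) on GRCm38.p6. Windows were at hand for 7 of the 10 genes. The p53 motif is a pair of 10-base decamers, and capitals mark the whole decamer or pair, bases that depart from the consensus included. All sequences are written along the strand of the gene.
Cdkn1a, chr17:29090908-29090967, plus strand: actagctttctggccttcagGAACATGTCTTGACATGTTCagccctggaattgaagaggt
Ccng1, chr11:40755442-40755501, minus strand: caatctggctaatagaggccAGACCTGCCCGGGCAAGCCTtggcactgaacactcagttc
Mdm2, chr10:117710915-117710964, minus strand: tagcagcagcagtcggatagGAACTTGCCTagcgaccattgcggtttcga
Bax, chr7:45467070-45467119, minus strand: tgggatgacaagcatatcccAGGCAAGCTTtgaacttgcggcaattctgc
Aen, chr7:78895937-78895956, plus strand: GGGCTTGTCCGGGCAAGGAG
Bbc3, chr7:16309486-16309505, plus strand: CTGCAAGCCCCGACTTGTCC

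A further exact decamer of Cdkn1a, which starts just before the stretch shown, is in lower case. The paired motifs of Cdkn1a and Ccng1 each departed from the consensus at 1 base and ended 29 and 151 bases before the gene start of GENCODE M21. Those of Aen, in an exon that is untranslated there, and of Bbc3, in an intron, departed at 3 bases. Mdm2 and Bax held a single decamer without mismatch, ending 177 and 192 bases before the start, and the window of Phlda3 held neither. A further window of Cdkn1a at a later start (chr17:29093519-29093818) and the later windows of Bbc3 also held neither. An exact decamer stood in 8.36% of all 32851 windows and a paired motif with at most 3 mismatches in 1.38%, on either strand. A paired motif with at most 2 mismatches stood in 0.326% of them. These are matches of letters and not measured binding.

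Between compartments, Cdkn1a (p21, an inhibitor of cyclin-dependent kinases) and Pmaip1 (Noxa, which neutralizes survival proteins of mitochondria) were the genes most regularly higher in the villus. Each was higher in the villus than in the crypt of the same mouse in 65 of 66 mice, the exceptions being mouse 485 for Cdkn1a and mouse 48 for Pmaip1. Aen, a nuclease that acts in apoptosis, went the other way, with a higher villus level in 7 of 66 mice. Ccng1 was higher in the villus in 9, Phlda3 in 22, Zmat3 in 27, Bax in 29, Trp53inp1 in 30, Bbc3 in 43, and Mdm2 in 46 mice.

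**Figure D1:**
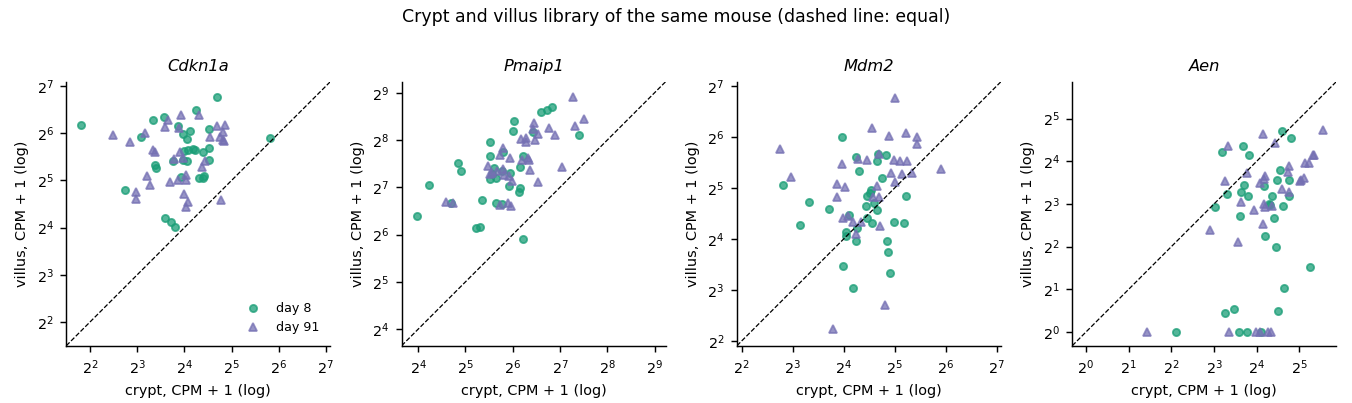
Level in the crypt (x axis) against level in the villus (y axis) of the same mouse, in CPM plus 1 on log axes, for Cdkn1a, Pmaip1, Mdm2, and Aen, with 1 point per mouse (66 mice). Cdkn1a and Pmaip1 lie above the line of equal level in 65 of 66 mice, and Aen lies above it in 7.

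At day 91 Cdkn1a was 4.61, 14.7, 7.97, 15.4, and 9.83 CPM in the untreated crypts and 61.3, 43.3, 63.6, and 33.7 CPM in the untreated villi. Every villus library was above every crypt library. With the mouse as a block, the villus exceeded the crypt by a log2 fold of 2.21 (SE 0.47, adjusted p = 0.00073). Pmaip1 was 58.9 to 85.1 CPM in those crypts and 249, 300.2, 100.003, and 96.0 CPM in the villi, again without overlap (log2 fold 1.23, SE 0.32, adjusted p = 0.0080). Aen was lower in the untreated villus at day 91 (-3.11, SE 1.07, adjusted p = 0.056), where its 4 libraries held 11 counts in all and 3 of them none. These 3 genes made up the calls of that contrast, in which 3.67% of all probes were higher and 7.86% lower in the villus. Without mouse 5 or mouse 7 Aen did not pass (adjusted p = 0.23 and 0.37). For bulk tissue, fewer cells of a type and less RNA per cell cannot be told apart.

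Untreated mice at day 8 gave 1 call of 10, higher in the villus, against 1.34% of probes: Pmaip1, at 1.41 (SE 0.29, adjusted p = 0.0027). Without the libraries that went against their labels there were 2 calls, Pmaip1 at 2.11 (SE 0.32, adjusted p = 3.1e-05) and Cdkn1a at 1.71 (SE 0.51, adjusted p = 0.051). When mouse 47 or mouse 50 was left out instead, Pmaip1 no longer passed (adjusted p = 0.13 and 0.11). At 180 ppm 2 genes were higher in the villus at day 8 (3.99% of probes), Cdkn1a by 1.84 (SE 0.49) and Pmaip1 by 1.48 (SE 0.36). At day 91 they were 3 (5.77% of probes), Cdkn1a by 1.24 (SE 0.36), Pmaip1 by 1.44 (SE 0.29), and Mdm2 by 1.19 (SE 0.33). Adjusted p values of these 5 differences ran from 0.00026 to 0.015. Without mouse 526 Pmaip1 was the only call at day 8. At day 91 Mdm2 did not pass without mouse 485 (0.85, adjusted p = 0.11), nor Cdkn1a without mouse 484 (0.92, adjusted p = 0.17).

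The effect of exposure is given from here against the untreated libraries of the same compartment and day. The broadest change was in the villus at day 91, where Mdm2 and Aen rose from 5 to 180 ppm and Trp53inp1, Ccng1, and Zmat3 rose at intermediate doses. Pmaip1 instead fell at 180 ppm in both compartments at day 8. In the crypt Mdm2, Aen, and Cdkn1a rose at day 91, at 60 or 180 ppm.

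In the crypt at day 8, edgeR called 0 of the 10 genes at 0.1, 1.4, 5, 20, and 60 ppm, where 0.0152%, 0.00379%, 0.0152%, 0.247%, and 2.14% of all probes passed. At an unadjusted p under 0.05 there were 0, 1, 1, 1, and 2 genes. DESeq2 also called 0 up to 5 ppm, and called Pmaip1 lower at 20 and at 60 ppm. At 180 ppm 1 gene fell, Pmaip1, beside 3.08% of probes.

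The crypt at day 91 likewise gave 0 calls at 0.1, 1.4, 5, and 20 ppm with edgeR and with DESeq2, where 0%, 0%, 0.00379%, and 0.535% of probes passed. Unadjusted p values were under 0.05 for 1, 1, 1, and 2 genes. At 60 ppm 2 genes rose, Aen and Mdm2 (9.78% of probes rose), and at 180 ppm 2 rose, Aen and Cdkn1a (3.80% of probes). DESeq2 called Aen higher and Bax lower at 60 ppm, and Cdkn1a alone at 180 ppm.

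Fewer genes were called in the villus at day 8 than at day 91, a difference in counts that was not itself tested. At day 8 there were 0 calls by edgeR at 0.1, 1.4, and 20 ppm (0%, 1.52%, and 2.61% of probes), with 0, 2, and 2 genes at an unadjusted p under 0.05. DESeq2 called 0 at 0.1 ppm, Pmaip1 lower at 1.4 ppm, and Bax higher at 20 ppm. Ccng1 fell at 5 ppm, as did 0.250% of probes, Bax rose at 60 ppm, as did 2.94%, and Pmaip1 fell at 180 ppm, as did 3.46%.

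The villus at day 91 had 0 calls by edgeR at 0.1 and 1.4 ppm, beside 0.0341% and 0.0341% of probes, with 2 and 3 genes at an unadjusted p under 0.05. DESeq2 called 0 at 0.1 ppm and Phlda3 lower at 1.4 ppm, where the 5 libraries held 1 count of it in all. At 5 ppm 3 genes rose, Mdm2, Aen, and Trp53inp1 (7.57% of probes rose). Ccng1 and Zmat3 joined them at 20 and at 60 ppm, which made 5 of 10 at each dose (10.2% of probes at each), and at 180 ppm Mdm2 and Aen rose (8.90%). By edgeR 0 of the 10 fell at any dose, whereas DESeq2 called Bax lower at 5 and 20 ppm as well as Phlda3 at 1.4 ppm. The median log2 fold of the 10 genes at 5, 20, 60, and 180 ppm was 0.39, 0.73, 0.53, and 0.40, and that of all probes was 0.43, 0.33, 0.23, and 0.11.

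Scaling bears on the villus at day 91. With DESeq2 size factors in edgeR every log2 fold there was 0.12 to 0.39 lower than with the scaling used here, and the 15 higher and 0 lower calls over 6 doses became 9 higher and 3 lower (Bax at 5 and 20 ppm, Bbc3 at 60 ppm). Over all probes the higher calls likewise went from 6.15% to 3.76% and the lower ones from 3.01% to 5.24%. In the crypt at day 91 the shift reached -0.29. The calls of Mdm2 and Aen at 5 to 180 ppm in the villus remained under that scaling. TMM itself scales to a single reference library, and with another one the villus folds of day 91 at 5 to 180 ppm were 0.015 to 0.10 lower. The calls of Zmat3 at 20 ppm and of Trp53inp1 at 60 ppm were then lost (adjusted p = 0.12 and 0.11).

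**Figure D2:**
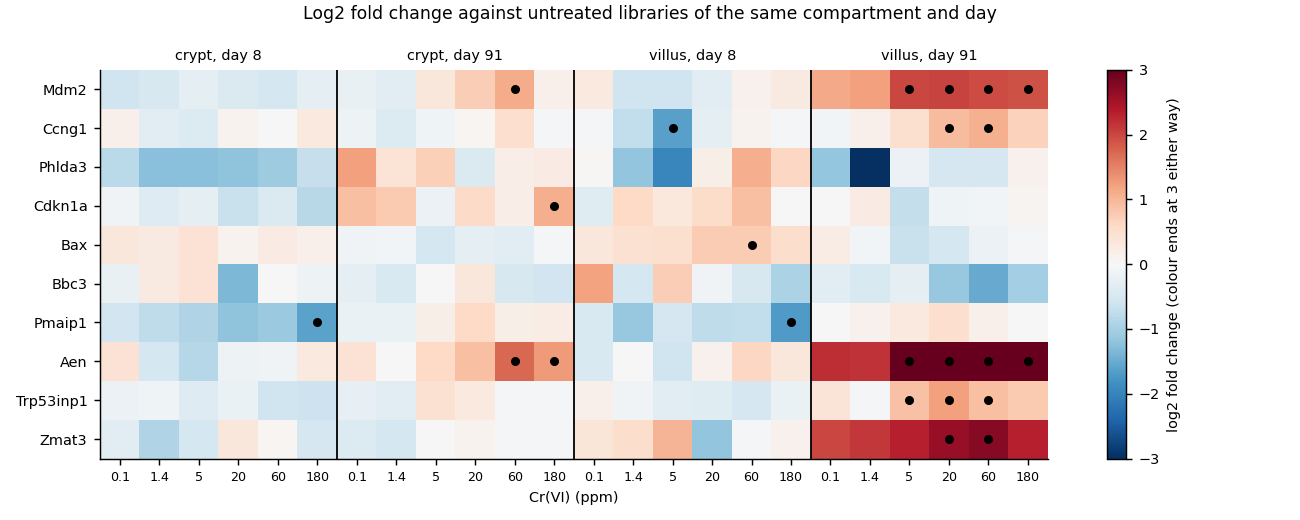
Log2 fold against untreated libraries of the same compartment and day for each of the 10 genes (top to bottom) at each dose (left to right, ppm), with the colour scale ending at 3 in either direction. A dot marks an adjusted p under 0.1. Dots for higher values gather in the villus at day 91, in Mdm2 and Aen from 5 to 180 ppm.

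Mdm2 encodes the ubiquitin ligase that removes p53. In the untreated villi of day 91 (mice 3, 5, 6, and 7) it was 5.48, 3.69, 20.3, and 17.98 CPM. At 20 ppm it was 66.6, 45.4, 38.2, 70.9, and 38.5 CPM, and at 180 ppm 46.0, 27.5, 53.6, 45.8, and 64.0 CPM. All 15 libraries at 20, 60, and 180 ppm were above the 4 untreated ones, and at 5 ppm the lowest of 5 (19.2 CPM) lay inside their range. The log2 folds were 2.0 (SE 0.43) at 5 ppm, 2.03 (SE 0.43) at 20 ppm, 1.95 (SE 0.43) at 60 ppm, and 1.91 (SE 0.43) at 180 ppm, with adjusted p of 0.0011, 0.00022, 0.00032, and 0.00057. At 0.1 and 1.4 ppm Mdm2 averaged 27.6 ± 5.29 and 29.7 ± 11.1 CPM (SD, n = 5), between the untreated mean of 11.9 ± 8.49 CPM (SD, n = 4) and the 47.4 to 51.9 CPM of the upper doses, and did not pass (adjusted p = 0.47 and 0.34). The 4 upper doses differed from each other by less than their spread.

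The untreated libraries of mice 3 and 5 had the lowest Mdm2 of all villi. Set against the 0.1 ppm libraries, Mdm2 rose at 20 ppm (0.89, SE 0.35, adjusted p = 0.092) and was 0.87, 0.82, and 0.77 at 5, 60, and 180 ppm (adjusted p = 0.13, 0.13, and 0.17; SE 0.35 each). With the number of probes detected as a covariate the 4 folds were 1.64 to 1.70 and each passed. The part of depth in the other differences at day 91 in the villus was not tested beyond these fits.

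Crypt levels of Mdm2 at day 91 were 27.2, 12.8, 14.8, 25.2, and 17.4 CPM without Cr(VI), 59.0, 42.3, 34.5, 42.2, and 33.3 CPM at 60 ppm, and 30.8, 22.9, 5.75, 20.9, and 28.5 CPM at 180 ppm. The group at 60 ppm was wholly above the untreated one, and that at 180 ppm overlapped it. The fold at 60 ppm was 1.11 (SE 0.34, adjusted p = 0.019) and that at 180 ppm 0.14 (SE 0.35, adjusted p = 0.91). The call at 60 ppm held without any 1 mouse, and was lost with DESeq2 size factors (0.81, adjusted p = 0.12) and with the covariate for detected probes (0.86, adjusted p = 0.19). At day 8 Mdm2 passed in neither compartment at any dose, with log2 folds of -0.60 to -0.29 in the crypt and -0.61 to 0.28 in the villus.

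**Figure D3:**
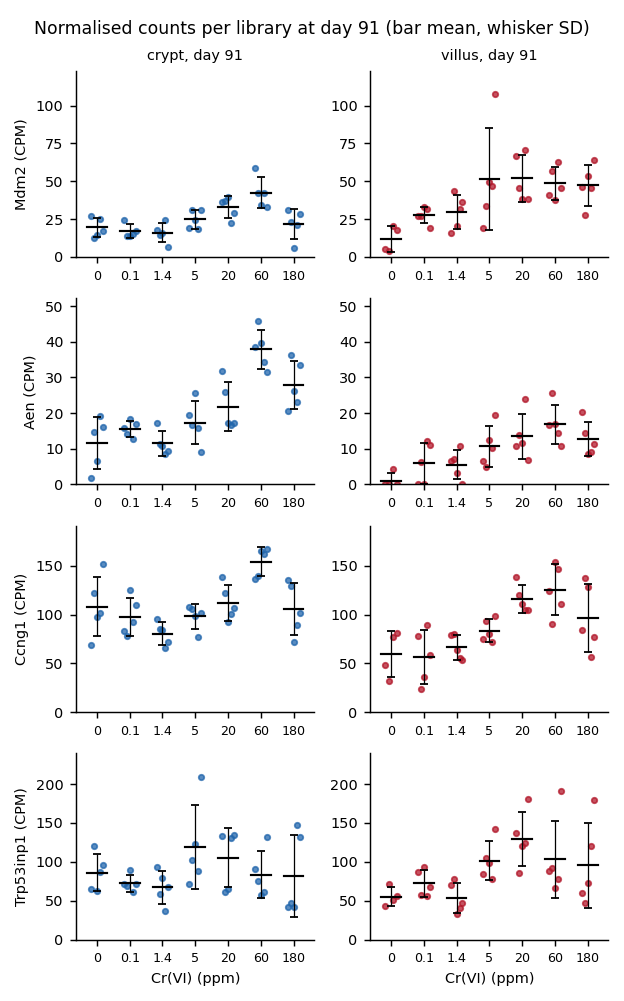
CPM by dose (ppm) at day 91 for Mdm2, Aen, Ccng1, and Trp53inp1, in the crypt and in the villus, with 1 point per library, a bar at the group mean, and a whisker of 1 SD. Mdm2 in the villus runs from 3.69 to 20.3 CPM without Cr(VI) and from 27.5 to 70.9 CPM at 20 to 180 ppm.

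Ccng1 (cyclin G1, which recruits a phosphatase to Mdm2) was 47.9, 31.7, 77.0, and 81.1 CPM in the untreated villi of day 91. It was 139, 119.9, 111, 104, and 104 CPM at 20 ppm and 125, 90.7, 154, 147, and 111 CPM at 60 ppm. Neither of those groups overlapped the untreated one, whereas at 180 ppm the range was 56.0 to 138 CPM. The folds at 20 and 60 ppm were 0.94 (SE 0.31, adjusted p = 0.027) and 1.06 (SE 0.31, adjusted p = 0.010), and at 180 ppm 0.68 (SE 0.31, adjusted p = 0.16). Unlike that of Mdm2, its rise was as large against the 0.1 ppm libraries, at 1.03, 1.15, and 0.77 for 20, 60, and 180 ppm (adjusted p = 0.0075, 0.0020, and 0.068). With the covariate for detected probes the folds at 20 and 60 ppm were 0.57 and 0.69 and did not pass (adjusted p = 0.38 and 0.22), and with DESeq2 size factors they were 0.62 and 0.69 (adjusted p = 0.18 and 0.12). Without mouse 5 the call at 20 ppm was lost (0.75, adjusted p = 0.17).

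In the opposite direction, villus Ccng1 at day 8 was 63.6, 36.9, 90.4, 84.7, and 50.6 CPM without Cr(VI) and 5.497, 15.2, 44.3, and 15.7 CPM at 5 ppm, 1 of these 4 lying inside the untreated range. It fell by 1.63 on the log2 scale (SE 0.34, adjusted p = 0.031), and was -0.27, 0.10, and -0.03 at 20, 60, and 180 ppm. The call was lost without mouse 48, 286, or 288 (adjusted p = 0.11, 0.17, and 0.13), and without the libraries that went against their labels (-1.48, adjusted p = 0.10).

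Of the apoptosis genes, Aen had the largest folds. It was at 0 counts in 3 of the 4 untreated villi of day 91 and at 4.21 CPM in the other, and was 16.6, 25.6, 16.8, 14.5, and 10.7 CPM at 60 ppm. From 5 ppm upward all 20 villus libraries were above all 4 untreated ones, the lowest at 4.81 CPM. The folds were 3.05 (SE 0.98), 3.37 (SE 0.93), 3.79 (SE 0.88), and 3.41 (SE 0.92) at 5, 20, 60, and 180 ppm, with adjusted p of 0.040, 0.0067, 0.00080, and 0.0058. Their size rests on 11 untreated counts, and against the 0.1 ppm libraries (0, 6.22, 0, 12.3, and 11.0 CPM) Aen rose at 60 ppm only among the doses (1.58, SE 0.57, adjusted p = 0.054). At 5 ppm the call was lost without mouse 3, 5, 7, or 246.

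Aen rose in the crypt of day 91 as well. Levels were 1.70, 14.7, 6.49, 19.3, and 16.1 CPM in untreated crypts, 38.6, 45.7, 39.6, 34.3, and 31.4 CPM at 60 ppm, and 20.7, 36.2, 26.2, 23.1, and 33.5 CPM at 180 ppm. Both exposed groups were wholly above the untreated one. The folds were 1.72 (SE 0.43, adjusted p = 0.0027) and 1.27 (SE 0.44, adjusted p = 0.075). With counts thinned to the smallest total or with the covariate for detected probes the fold at 60 ppm was 1.09 or 1.17 and did not pass (adjusted p = 0.18 and 0.14). That at 180 ppm was lost without mouse 3, 6, 484, or 490. It was also lost in 8 of 13 alternative settings of the processing, where the fold went down to 0.56 (adjusted p up to 0.67).

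Pmaip1 behaved otherwise: it fell at day 8 in both compartments and passed nowhere at day 91. Crypt levels at day 8 were 105, 96.3, 73.6, 168, and 64.5 CPM in untreated mice and 14.7, 36.7, 24.9, 38.9, and 49.3 CPM at 180 ppm, without overlap. The groups at 20 and 60 ppm, at 27.8 to 53.6 and 17.7 to 63.5 CPM, did not overlap the untreated one either (-1.20, SE 0.37, adjusted p = 0.25, and -1.12, SE 0.37, adjusted p = 0.12). At 180 ppm it fell by 1.61 on the log2 scale (SE 0.39, adjusted p = 0.0039), and by 1.36 without the libraries that went against their labels (adjusted p = 0.038).

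Villus Pmaip1 at day 8 was 398, 386, 58.8, 274, and 338 CPM in untreated mice, the low value being that of mouse 48, and 83.2, 100.2, 71.0, and 100.2 CPM at 180 ppm. All 4 exposed libraries lay below the other 4 untreated ones. It fell by 1.71 on the log2 scale (SE 0.39, adjusted p = 0.0021), and by 1.97 without the libraries that went against their labels (adjusted p = 0.00014). In those libraries left, it also fell by 1.0 at 60 ppm (SE 0.35, adjusted p = 0.085). The summed level of 6 villus markers moved with Pmaip1 at day 8: its median went from 14169 CPM untreated to 6484 CPM at 180 ppm in the crypt, where 3 of the 6 fell, and from 46007 to 17038 CPM in the villus, where 2 fell. Their part in the fall of Pmaip1 was not tested. By day 91 the villus means of Pmaip1 were 186 ± 104 CPM untreated (SD, n = 4) and 185 ± 101 CPM at 180 ppm (SD, n = 5).

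**Figure D4:**
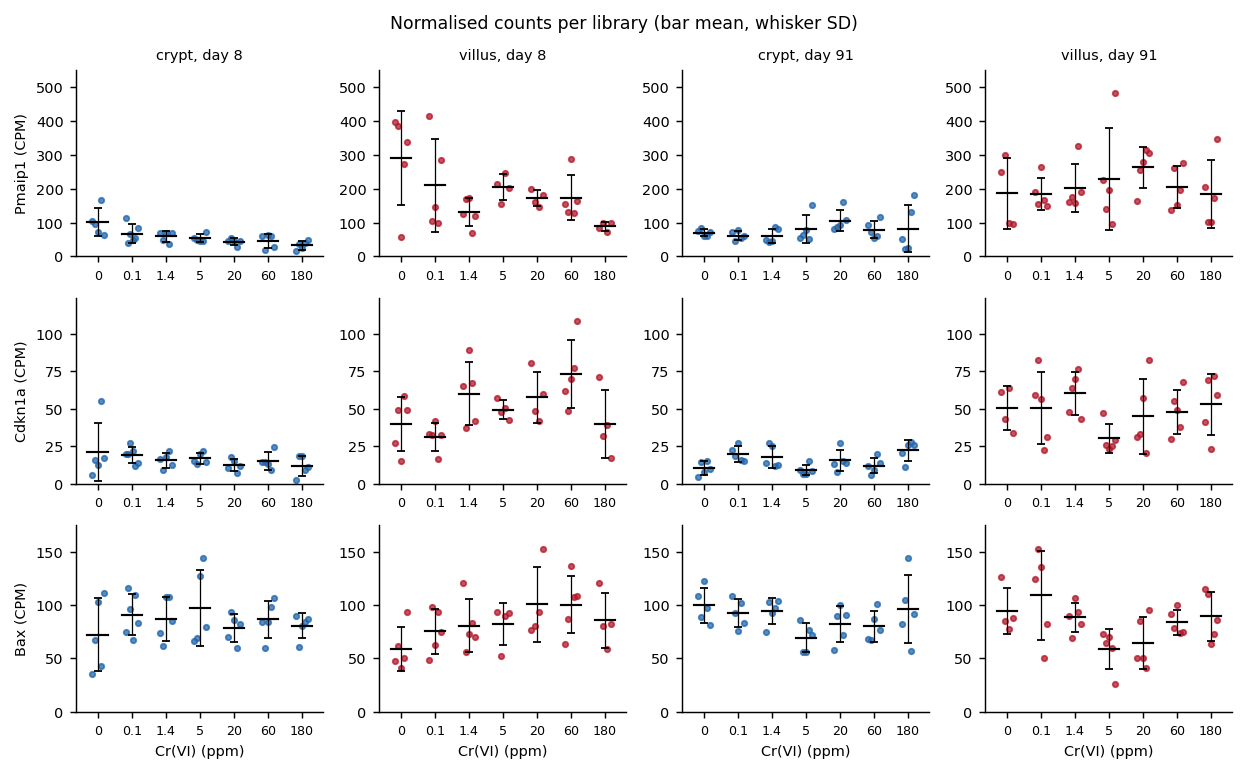
CPM by dose (ppm) for Pmaip1, Cdkn1a, and Bax in both compartments and on both days, with 1 point per library, a bar at the group mean, and a whisker of 1 SD. Pmaip1 at day 8 has its lowest group mean at 180 ppm in both compartments, with the untreated villus of mouse 48 (58.8 CPM) below the rest of its group.

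Bax, which forms the pores of the mitochondrial outer membrane, rose by edgeR only in the villus at day 8 and 60 ppm among the 24 comparisons with untreated libraries. DESeq2 called it higher there at 20 and 60 ppm, and lower at day 91 in the crypt at 60 ppm and in the villus at 5 and 20 ppm. Its levels there were 63.8, 86.8, 136.9, 108, and 109 CPM, against 47.9, 61.3, 41.0, 50.6, and 93.8 CPM without Cr(VI), and the ranges overlapped. The fold was 0.76 (SE 0.26, adjusted p = 0.073), and the call was lost without mouse 46, 47, 48, 49, 448, 449, or 450. Without the libraries that went against their labels the fold was 0.65 (SE 0.27, adjusted p = 0.18). In the villus at day 91 and 5 ppm all 5 libraries (26.1 to 73.1 CPM) lay below the 4 untreated ones (78.2 to 127 CPM), at -0.67 (SE 0.28, adjusted p = 0.13). Against the 0.1 ppm libraries Bax fell there at 5 ppm by 0.89 (SE 0.26, adjusted p = 0.027) and at 20 ppm by 0.75 (SE 0.26, adjusted p = 0.042).

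Bbc3 (Puma, which like Pmaip1 is a p53 target that acts at mitochondria) had few counts, a median of 19 per library and none in 21 libraries. Villus levels at day 91 were 22.9, 0, 19.5, and 10.3 CPM untreated and 1.77, 3.09, 9.56, 6.83, and 4.71 CPM at 60 ppm, with overlap (-1.51, SE 0.71, adjusted p = 0.17). It passed at no single dose in either compartment.

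For Cdkn1a the single call was in the crypt at day 91 and 180 ppm, at 20.7, 11.0, 26.2, 28.1, and 26.0 CPM against 4.61, 14.7, 7.97, 15.4, and 9.83 CPM untreated. Of the 5 exposed libraries 4 were above all untreated ones. The fold was 1.10 (SE 0.38, adjusted p = 0.084), and was lost without any 1 of mice 3, 6, 8, 483, 485, 488, or 490. The call was also lost in 4 of 13 alternative settings of the processing, where the fold went down to 0.18 (adjusted p up to 0.92). Crypts at 0.1 ppm were at 22.4, 18.7, 27.5, 15.8, and 15.3 CPM, inside the range at 180 ppm. Fitted without the untreated libraries, the crypt slope of Cdkn1a at day 91 was -0.0017 (SE 0.061). The villi of the same day were at 33.7 to 63.6 CPM untreated and 23.2 to 71.5 CPM at 180 ppm (0.08, SE 0.36, adjusted p = 0.98). At day 8 villus Cdkn1a was 73.2 ± 22.4 CPM at 60 ppm against 39.8 ± 18.02 CPM untreated (SD, n = 5 each), and did not pass (0.90, SE 0.33, adjusted p = 0.11).

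Trp53inp1 encodes a stress protein that supports p53 activity and autophagy. In the untreated villi of day 91 it was 42.9, 71.7, 50.6, and 55.5 CPM, and at 20 ppm 136.5, 85.2, 120.3, 124, and 180.3 CPM, without overlap. It rose by 0.88 (SE 0.33) at 5 ppm, 1.24 (SE 0.33) at 20 ppm, and 0.91 (SE 0.33) at 60 ppm, with adjusted p of 0.090, 0.0051, and 0.058. At 180 ppm the libraries ranged from 46.8 to 179.8 CPM, and the fold of 0.80 did not pass (SE 0.33, adjusted p = 0.12). The call at 20 ppm held without any 1 mouse, that at 5 ppm was lost without mouse 3, 5, 6, 7, 243, 244, or 246, and that at 60 ppm without mouse 3, 6, 7, or 406. Under 13 alternative settings of the processing the call at 20 ppm held in all 13. That at 5 ppm was lost in 7 and that at 60 ppm in 5. In the crypt it passed at neither day.

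Zmat3, an RNA-binding zinc finger protein, was at 0 counts in 3 of the 4 untreated villi of day 91 and 5.36 CPM in the other. It was 6.99, 9.08, 11.8, 8.62, and 10.5 CPM at 20 ppm and 14.7, 8.31, 11.8, 10.1, and 5.65 CPM at 60 ppm, all above the untreated values. The folds were 2.61 (SE 1.04, adjusted p = 0.095) and 2.74 (SE 1.02, adjusted p = 0.065), on 14 untreated counts. The call at 20 ppm was lost in 8 of 34 fits without 1 mouse (3, 5, 6, 321, 323, 325, 327, or 328) and that at 60 ppm without mouse 3, 5, 6, or 402, and against the 0.1 ppm libraries Zmat3 passed at no dose. Of 13 alternative settings of the processing, that comparison among them, the call at 20 ppm was lost in 9 and that at 60 ppm in 6.

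Phlda3, a repressor of the kinase Akt, passed in none of the 24 comparisons by edgeR, and by DESeq2 in 1, the villus at day 91 and 1.4 ppm. Its probe had a median of 11 counts per library and none in 35 libraries, and its coefficient of variation within groups had a median of 80.2%, the highest of the 10 genes. Ccng1 had the lowest, 20.4%, and Mdm2 32.5%. That of Zmat3 was 75.6%. What size of change these counts could show was not tested.

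Dose trends were fitted as a slope per step over the 7 doses in order. In the villus at day 91, 5 genes had a rising slope and 1 a falling slope (17.0% and 9.27% of probes): Aen 0.52 (SE 0.11, adjusted p = 3.5e-05), Zmat3 0.32 (SE 0.13, adjusted p = 0.054), Mdm2 0.29 (SE 0.05, adjusted p = 4.6e-06), Ccng1 0.18 (SE 0.04, adjusted p = 0.00012), Trp53inp1 0.17 (SE 0.04, adjusted p = 0.0014), and Bbc3 -0.22 (SE 0.09, adjusted p = 0.066). Fitted without the untreated libraries, Aen (0.32, SE 0.10), Ccng1 (0.20, SE 0.05), Mdm2 (0.17, SE 0.06), and Trp53inp1 (0.15, SE 0.05) still rose with dose, with adjusted p of 0.00055 to 0.027. In that fit 21.9% of all probes passed, in either direction. Phlda3 also passed without the untreated libraries (0.59, SE 0.22, adjusted p = 0.044), on 24 counts in all at 0.1 ppm and 1 at 1.4 ppm, and Zmat3 and Bbc3 did not. Over all doses, with 1 mouse left out at a time, the slope of Zmat3 was lost without mouse 3, 5, 6, or 484 and that of Bbc3 without mouse 3, 6, 402, or 485.

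The other trends were fewer. Crypt slopes at day 91 rose for Aen (0.26, SE 0.06, adjusted p = 0.00030) and Mdm2 (0.15, SE 0.05, adjusted p = 0.018), beside 10.7% of probes. Both held without the untreated libraries, where 13.6% of probes passed in either direction. At day 8 Pmaip1 fell with dose in the crypt (-0.23, SE 0.05, adjusted p = 0.00072, beside 5.78% of probes) and in the villus (-0.19, SE 0.05, adjusted p = 0.0051, beside 8.19% of probes), where Bax rose (0.10, SE 0.04, adjusted p = 0.060, beside 5.86% of probes). Without the untreated libraries Pmaip1 held in the crypt (-0.19, adjusted p = 0.054, 9.45% of probes in either direction). In the villus neither gene passed (adjusted p = 0.12 and 0.50, 14.4% of probes). The slope of Bax was also lost without the libraries that went against their labels (adjusted p = 0.13) and without mouse 46, 48, 90, 369, 448, or 526.

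**Figure D5:**
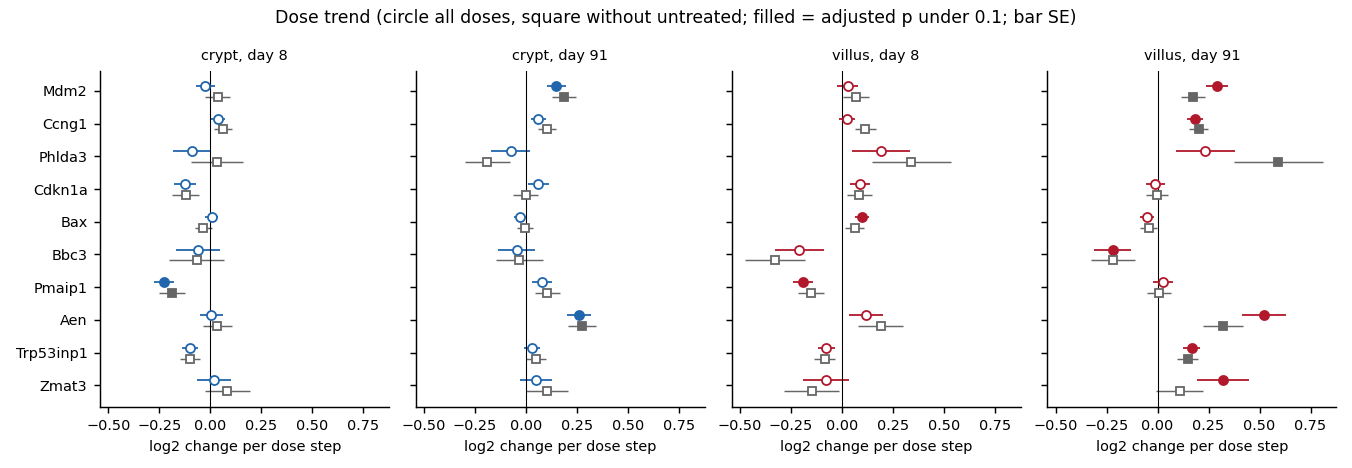
Slope of log2 level per dose step with its standard error for each gene, in both compartments and on both days, over all doses (circles) and without the untreated libraries (squares). Filled marks have an adjusted p under 0.1, and in the villus at day 91 Mdm2, Aen, Ccng1, and Trp53inp1 are filled in both.

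Whether days differed in the effect of 180 ppm was tested as an interaction. By edgeR 0 of 10 genes passed in the crypt (0.110% of probes) and 0 in the villus (0.971%), by DESeq2 likewise 0 and 0, and 2 and 4 had an unadjusted p under 0.05. In the crypt these were Cdkn1a (1.94, SE 0.55) and Pmaip1 (1.84, SE 0.53), both with an adjusted p of 0.27. Without the libraries that went against their labels they were 1.29 (SE 0.55, adjusted p = 0.73) and 1.59 (SE 0.51, adjusted p = 0.55). In the villus they were Pmaip1 (1.71, SE 0.54, adjusted p = 0.13), Mdm2 (1.63, SE 0.57, adjusted p = 0.19), Aen (3.06, SE 1.17, adjusted p = 0.24), and Trp53inp1 (0.99, SE 0.46, adjusted p = 0.35). All 6 were more positive at day 91. Without the libraries that went against their labels Pmaip1 passed in the villus (1.98, SE 0.53, adjusted p = 0.073). It also passed in the villus without mouse 5, 48, or 484 and in the crypt without mouse 484 or 485.

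Whether the compartments differed in the effect of 180 ppm was tested with the mouse as a block. At day 8 and at day 91 0 of 10 genes passed by edgeR (0.0582% and 0.446% of probes), with 0 and 2 at an unadjusted p under 0.05. Those at day 91 were Mdm2 (1.89, SE 0.60, adjusted p = 0.245) and Trp53inp1 (0.91, SE 0.39, adjusted p = 0.58). DESeq2 called 0 at day 8 and Mdm2 at day 91 (2.02, SE 0.61, adjusted p = 0.058). A difference between the villus and the crypt in the change of Mdm2 at 180 ppm was therefore not shown by edgeR.

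Levels of cell markers moved with dose beside these genes. In the villus at day 91 the summed level of 6 lymphoid and plasma cell genes had a median of 722 CPM untreated (456 to 1147 CPM) and medians of 1869 to 2559 CPM at 5 to 180 ppm. Of these 6 genes 1 rose and 1 fell at 5 and at 20 ppm, and 1 rose and 2 fell at 60 and at 180 ppm, so the sum does not describe each gene. The sum of 10 proliferation genes had a median of 148 CPM untreated and 187 to 294 CPM at those doses. In the crypt of that day the proliferation genes went from a median of 585 to 982 CPM at 180 ppm, and 6 smooth muscle genes from 1319.5 to 555 CPM at 60 ppm, where 5 of them fell. In the villus of day 91 the smooth muscle sum had a median of 582 CPM untreated and 215 to 346 CPM at 5 to 180 ppm, and 3, 5, 5, and 4 of the 6 genes fell at 5, 20, 60, and 180 ppm. The summed level of 6 villus markers in the villus at day 91 had a median of 42611 CPM untreated and 25112 CPM at 180 ppm. That of 5 goblet cell and Brunner's gland genes, of which 3 were in the table, had a median of 831 CPM untreated and 979.9 CPM at 180 ppm. That of 8 acinar genes of the pancreas ranged from 2.74 to 152114 CPM over all villi. Their part in the results was not tested.

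A further 47 genes of the p53 pathway, regulators and other targets, were listed by role, and 46 were tested. At 180 ppm 0 rose and 2 fell in the crypt at day 8, where 1.05% of all probes rose and 3.08% fell. In the crypt at day 91 5 rose and 2 fell, against 3.80% and 2.69%. In the villus 2 rose and 3 fell at day 8, against 2.50% and 3.46%, and 9 rose and 5 fell at day 91, against 8.90% and 4.95%. Their median log2 folds there were -0.10, -0.05, -0.01, and 0.61, against -0.04, -0.0045, -0.10, and 0.11 over all probes. Over the 6 doses in the villus at day 91 there were 41 higher and 13 lower calls of the 46 genes, beside 6.15% and 3.01% of all probes tested at those doses. With DESeq2 size factors they were 26 and 23, beside 3.76% and 5.24%.

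The gene of p53 itself, Trp53, averaged 46.2 ± 24.4 CPM in untreated villi (SD, n = 4) and 76.2 ± 18.3 CPM at 180 ppm (SD, n = 5) at day 91 (0.71, SE 0.26, adjusted p = 0.060). In the crypt it was 86.7 ± 18.9 CPM and 141 ± 17.7 CPM (SD, n = 5 each; 0.70, SE 0.22, adjusted p = 0.043). The villus call of Trp53 was lost in 6 of 13 alternative settings of the processing and in 5 of 34 fits without 1 mouse. Its crypt call was lost in 3 of 13 settings and in 3 of 35 such fits. Usp7, a protease that stabilizes Mdm2 and p53, rose in both, by 1.08 (SE 0.18, adjusted p = 2.8e-06) in the villus and 0.53 (SE 0.16, adjusted p = 0.037) in the crypt. Cop1, another ubiquitin ligase of p53, rose by 0.95 (SE 0.22, adjusted p = 0.0011) in the villus and 0.64 (SE 0.20, adjusted p = 0.040) in the crypt.

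Of 9 regulators, Hipk2, a kinase that activates p53, fell in the villus at day 91 (-3.68, SE 1.03, adjusted p = 0.0079), from a mean of 12.1 CPM with 1 of 4 libraries at 0 to 0.778 CPM with 3 of 5 at 0. Chek1, a checkpoint kinase, rose there and was at 0 counts in 3 of 4 untreated libraries and at 6.71 to 29.6 CPM at 180 ppm (3.44, SE 0.99, adjusted p = 0.011). Mdm4, Atm, Atr, Chek2, and Trp53bp1 passed in neither compartment at either day at that dose.

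Several other targets fell. Btg2, an antiproliferative gene, fell in the villus by 1.57 (SE 0.36) at day 8 and 2.23 (SE 0.34) at day 91 on the log2 scale. Sesn1, a sestrin that restrains growth signaling, fell there by 1.64 (SE 0.40) and 1.24 (SE 0.38), and Ccng2, a relative of cyclin G1, by 1.14 (SE 0.38) and 1.16 (SE 0.36). In the crypt Thbs1, a secreted matrix protein, fell by 2.16 (SE 0.44) and Gadd45a, a growth arrest gene, by 1.07 (SE 0.26) at day 8, and Ccng2 by 1.93 (SE 0.41) at day 91. Plk2, a kinase of the polo family, rose in the villus by 2.05 (SE 0.63) and 2.27 (SE 0.62), and Shisa5, an apoptosis gene, by 1.60 (SE 0.37) at day 91. Adjusted p of these 12 changes ran from 2.4e-07 to 0.068.

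How far the 10 genes moved together is described over the 28 group means of log2 level, which share their libraries and depth. Cdkn1a and Pmaip1 had the highest correlation (r = 0.81), which spans the gap between compartments: within the sets of one compartment and day r was 0.78, -0.43, -0.01, and -0.34. Ccng1 and Aen (r = 0.73) kept 0.72 to 0.93 in all 4 sets, and Mdm2 and Aen reached 0.97 in the villus at day 91. The lowest values were those of Cdkn1a and Aen (r = -0.66) and Bax and Trp53inp1 (r = -0.63). Among 9974 probes compared over the same means, those most like Mdm2 were Lama5, Gcnt2, and Ccnl1 (r = 0.88, 0.87, and 0.87), those most like Cdkn1a were Fam214b, Ypel5, and Fam84a (0.97, 0.93, and 0.92), and those most like Bax were Vdac1, Mrpl51, and Nsdhl (0.81, 0.81, and 0.79). The second probes of Mdm2, Phlda3, Cdkn1a, Bax, and Aen that passed the count filter were called in no exposure or trend comparison, and had totals of 642 to 1489 counts over all libraries against 1714 to 43630 for the probes used. That of Mdm2 had counts in 51 libraries and did not show the villus rise of day 91. Its folds at 5, 20, 60, and 180 ppm were -6.05 (SE 3.33), 0.08 (SE 1.38), -2.93 (SE 2.03), and 0.38 (SE 1.31). The further probes of Aen (1472 and 839 counts in all) did not show its crypt rise of day 91. Their crypt folds were -0.30 (SE 0.74) and -0.64 (SE 0.87) at 60 ppm, and -0.29 (SE 0.73) and 0.11 (SE 0.78) at 180 ppm. In the villus of that day the former gave -0.70, 1.33, 1.09, and 0.97 at 5, 20, 60, and 180 ppm. The latter gave -0.59, -1.23, 0.73, and -0.24 (SE 1.22 to 1.77 for these villus folds).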

How the data were processed

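The authors ligated TempO-Seq probes to RNA from crypt and villus scrapings, sequenced them, and deposited raw counts per probe. Per the submitters' processing notes they used bcl2fastq 2.17.1.14 and Bowtie, whose version is not given in the sources used here. Counts are not corrected for amplification. No column was left out.

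From the deposited counts, edgeR 4.0.16 in R 4.3.3 (limma 3.58.1) was fitted to all 137 libraries as 28 groups (filterByExpr, TMM scaling, glmQLFit and glmQLFTest with legacy = FALSE, prior count 0.125), and Benjamini-Hochberg adjustment ran over 26365 probes with a threshold of 0.1. Contrasts between compartments used the untreated and 180 ppm libraries with the mouse as a block. Same-mouse libraries came from the same animal, and their deviations from the group means correlated with a median r of 0.20 (range -0.15 to 0.61, 18 pairs). The script was tested on simulated data. DESeq2 1.42.0 was an alternative. TMM scales libraries to 1 reference library, which was held when mice, libraries, or filters were changed.

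The 10 genes and the pathway and marker lists were chosen with earlier results of these data known. The named pathway genes are the regulators and, in each compartment and day at 180 ppm, up to 3 with the smallest adjusted p. Of the other genes, those most like Mdm2, Cdkn1a, and Bax are named. Gene starts are from GENCODE M21 on GRCm38, and promoter windows from RefSeq on GRCm38.p6, which had an entry for 7 of the 10 genes. Each mouse gave 1 crypt and at most 1 villus library. Counting error alone bounds a library at 0 counts to under 3 counts.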

Additional observations from a re-analysis of the deposited data

Results flagged for a closer look

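In each group, of 4 to 6 libraries, the highest and lowest level of each gene was compared with the nearest other value. Of 280 combinations of gene and group, 18 held a library that stood apart by Dixon's critical value, 15 as the highest and 3 as the lowest, where chance alone gives about 1 in 20, or 14. The part of chance in each was not tested further.

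The untreated crypt library of mouse 49 at day 8, which went against its label by crypt markers, stood apart for 2 genes: it had the highest Cdkn1a of its group (55.2 CPM, next 17.1 CPM) and the lowest Aen (3.32 CPM, next 18.4 CPM). The villus library of mouse 246 at day 91 and 5 ppm had the lowest Bax (26.1 CPM, next 59.8 CPM), and the crypt library of the same mouse the highest Pmaip1 (153 CPM, next 79.1 CPM). The villus library of mouse 406 at day 91 and 60 ppm had the highest Trp53inp1 (191 CPM, next 91.9 CPM).

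For Pmaip1, mouse 448 stood highest in the villus at day 8 and 60 ppm (289 CPM) and mouse 164 in the villus at day 91 and 1.4 ppm (327 CPM). Mouse 241 had the highest Cdkn1a in the villus at day 91 and 5 ppm (47.5 CPM), and mouse 288 the lowest Bax in the villus at day 8 and 5 ppm (52.8 CPM). Zmat3 was highest in mouse 8 among untreated crypts of day 91 (22.3 CPM).

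The other 8 were genes with few counts in a villus group where most libraries were at or near 0. They were Phlda3 at day 8 in mouse 130 (0.1 ppm, 8.47 CPM), mouse 207 (1.4 ppm, 3.24 CPM), and mouse 286 (5 ppm, 2.11 CPM), and at day 91 in mouse 162 (1.4 ppm, 0.259 CPM), Bbc3 at day 8 in mouse 366 (20 ppm, 17.0 CPM), Zmat3 at day 8 in mouse 367 (20 ppm, 6.40 CPM) and at day 91 in untreated mouse 7 (5.36 CPM), and Aen at day 91 in untreated mouse 6 (4.21 CPM).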

How the results depend on the processing

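Counts of calls below add up the doses of a compartment and day. Of 20 such counts, 204 values under the alternatives stayed within 1.5 times the value reported and 46 did not. Counts with 1 mouse left out are not among these and are given further below. The 71 single changes followed (43 of them in the 10 genes) had 3027 values under the alternatives and with 1 mouse left out. Of these, 2749 kept their direction and their side of the threshold, 278 were no longer past it, and 0 changed sign. The covariate for detected probes, the comparison with 0.1 ppm, the trends without untreated libraries, and the other TMM reference library were chosen after seeing the data. The cause of the moves was not tested.

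In the crypt at day 8 the 1 exposure call of the 10 genes became 3 with DESeq2, 2 each with DESeq2 size factors in edgeR, with a mean count of at least 10, with compartments and days fitted separately, and with log10 total as a covariate, and 0 by edgeR against 0.1 ppm. The 1 trend became 3 with a mean count of at least 10 and 2 with the separate fit. The 3 calls of the wider pathway list became 7 with DESeq2, 5 with the separate fit, 6 with probes summed for each gene, 5 with the covariate for detected probes, and 8 against 0.1 ppm.

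In the crypt at day 91 the 4 exposure calls became 1 each with DESeq2 size factors, thinned counts, the default form of glmQLFit, and the covariate for detected probes, and 2 each at a threshold of 0.05 and against 0.1 ppm. The 18 pathway calls (12 higher, 6 lower) became 38 with the separate fit (18 higher, 20 lower), 11 with the default form, 8 with the covariate for detected probes, and 9 against 0.1 ppm.

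In the villus at day 8 the 3 exposure calls became 5 with DESeq2, 6 with a mean count of at least 10, 1 with the separate fit, and 5 with probes summed. The 2 trends became 1 each with the separate fit, without the libraries of mice 48 and 49 that went against their labels, at a threshold of 0.05, and with the covariate for detected probes, and 0 without the untreated libraries. The 9 pathway calls became 15 with DESeq2, 16 with a mean count of at least 10, 4 each with the separate fit and the default form, and 14 with the covariate for detected probes.

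In the villus at day 91 the 15 exposure calls became 7 with the covariate for detected probes and 8 against 0.1 ppm, and the 54 pathway calls became 25 with the covariate. With another TMM reference library they were 13 and 50. The 1 compartment call in untreated mice at day 8 became 2 each with DESeq2, with probes summed, and without the libraries that went against their labels. The 0 calls of the compartment difference in exposure at day 91 became 1 with DESeq2, and the 0 of the day difference in the villus became 1 with the default form and 1 without the libraries that went against their labels. The day difference could not be fitted separately for each day.

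With each mouse left out in turn, exposure calls ran from 1 to 2 (crypt, day 8), 2 to 4 (crypt, day 91), 2 to 5 (villus, day 8), and 10 to 16 (villus, day 91). Trends ran from 1 to 2, 2 to 2, 1 to 2, and 4 to 6 in the same order, and pathway calls from 2 to 5, 11 to 18, 6 to 17, and 36 to 55. Compartment calls ran from 0 to 1 and 2 to 3 in untreated mice at days 8 and 91, and from 1 to 3 and 2 to 4 at 180 ppm. Those of the compartment difference in exposure stayed from 0 to 0 on both days, and those of the day difference ran from 0 to 1 in each compartment. Counts moved over 1.5 times without mouse 48 or 50 (crypt exposure, day 8, 2 calls), 48 (its pathway calls, 5), 46, 50, 126, 447, 450, or 529 (its trends, 2), 3, 6, or 490 (crypt exposure, day 91, 2), 3 or 6 (its pathway calls, 11), 50 or 447 (villus exposure, day 8, 5), 50 (its pathway calls, 17), and 46, 48, 90, 369, 448, or 526 (its trends, 1). They also moved without mouse 47 or 50 (untreated compartments at day 8, 0 calls by edgeR), mouse 526 (180 ppm at day 8, 1), 484 or 485 (day difference in the crypt, 1), and 5, 48, or 484 (in the villus, 1).

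The pairing of compartments within a mouse entered as a block. Without the block the compartment calls were 4 in place of 3 in untreated mice at day 91, where Ccng1 was added as lower in the villus (-0.84, adjusted p = 0.074). It changed no other call.

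Phlda3, Bbc3, and Zmat3 had few counts, and every fold against untreated villi of day 91 rests on 4 shallow libraries. Reads carried no molecular identifiers, so counting intervals leave out amplification error. No batch is given in the sources used here.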
